A study of Mus musculus with 6 samples.

Results

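The miR-376 family of the mouse brain was followed through the mature miRNA reads of 3 wild-type and 3 Adar2-/- brains. Its members were every entry of the deposited tables whose name starts with miR-376a, miR-376b or miR-376c on either arm, which gave 6 of 1055 entries: the guide strands miR-376a, miR-376b and miR-376c and the star strands miR-376a*, miR-376b* and miR-376c*. All mice were adult females of the 129SV strain, siblings killed at 5.5 months, and both genotypes were homozygous for the pre-edited Gria2 allele that rescues the Adar2-/- animals from early death. Controls therefore carry that allele as well, ADAR1 was not deleted, and Adar2 loss with a normal Gria2 was not studied. The RNA came from whole brain, so fewer cells that make a miRNA and less of it per cell cannot be told apart.

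ADAR1 and ADAR2 turn adenosine into inosine in double-stranded RNA, and inosine is read as guanosine. The primary transcripts of the miR-376 cluster are among the best known miRNA substrates of these enzymes, with edited adenosines in the seed, the stretch from base 2 to base 8 with which a miRNA finds its targets. In the mouse the miR-376 genes lie in the imprinted Dlk1-Dio3 domain, within a long row of miRNA genes that is active from the maternal chromosome and strongly expressed in brain. A hairpin gives 1 miRNA from each side of its stem, and the naming of the tables calls the arm thought to be the main product the guide and the other the star.

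Mature sequences were matched in RefSeq for 5 of the 6 members, and miR-376c was not among them. They are shown 5′ to 3′ with the seed in capitals, because the edited adenosines fall in the seed and because miR-376b* and miR-376c* differ at a single base.
miR-376a: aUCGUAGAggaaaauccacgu
miR-376b: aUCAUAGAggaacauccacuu
miR-376a*: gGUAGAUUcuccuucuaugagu
miR-376b*: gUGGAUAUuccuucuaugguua
miR-376c*: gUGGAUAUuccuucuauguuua

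The triplet UAG, the preferred setting of an edited adenosine, stood with its A inside the seed in 3 of the 5 sequences. Counted from 1 at the 5′ end, this A was base 6 in miR-376a, base 6 in miR-376b and base 4 in miR-376a*. Read 5′ to 3′ on the strand of the miRNA, the same was found in 8.76% of the 1679 mature mouse miRNAs of the RefSeq table. An inosine there would be read as A6G in miR-376a and miR-376b and as A4G in miR-376a*. The forms with that base read as G are shown because their seeds belong to no entry of the table.
miR-376a with A6G: aUCGUGGAggaaaauccacgu
miR-376b with A6G: aUCAUGGAggaacauccacuu
miR-376a* with A4G: gGUGGAUUcuccuucuaugagu

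miR-376b* and miR-376c* hold no UAG, so the most abundant strand of the family lacks the preferred triplet. The positions come from the sequences, and editing levels were not analysed here.

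The unedited seeds of miR-376a, miR-376b and miR-376a* each belong to no other entry of the table. miR-376b* and miR-376c* share the seed UGGAUAU, which no other entry of the table has, and differ at a single base of 22, G19U, behind 18 identical bases. Reads that end before base 19 therefore match both entries equally well. The guides miR-376a and miR-376b differ at 3 of 21 bases, G4A, A13C and G20U, and the first of these separates their seeds. After A6G the edited form of either guide differed from the other unedited guide at 4 bases, and the mapping accepted reads at 90% identity or more. Shifted by 1 base, miR-376a* differed from miR-376b* at 5 of 21 bases, and at 4 after A4G.

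The 3 hairpins lie close together on the plus strand of chromosome 12, and other miRNA genes between them were not looked for. On NCBIM37, Mir376c lies at chr12:110960928-110961013, Mir376b at chr12:110961668-110961749 and Mir376a at chr12:110961991-110962058, so that all 3 fit into 1131 bp. The GENCODE annotation of this build has a Mir376b gene over the second hairpin, no gene over Mir376c, and over Mir376a only a miRNA gene on the opposite strand, AC121784.2. No hairpin overlaps an annotated host gene. The adenosine of the UAG in miR-376a* is at chr12:110961999-110961999, that in miR-376a at chr12:110962039-110962039 and that in miR-376b at chr12:110961723-110961723.

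In structures predicted by RNAfold the UAG adenosine of miR-376a*, base 9 of the Mir376a hairpin, was unpaired. With G in its place it paired with the C at base 60, and the minimum free energy went from -16.6 to -23.2 kcal/mol. The adenosines of both guides were paired with U, at base 49 of Mir376a and base 56 of Mir376b. With G in its place the pair was kept and the energy moved little, from -16.6 to -16.3 kcal/mol for Mir376a and from -33.8 to -33.5 kcal/mol for Mir376b. These are predictions from sequence, not measurements.

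Libraries held 12449633 to 23935544 mapped miRNA reads, and levels are given as reads per 1000000 of these (RPM). A minimum of 100 reads in each library left 399 miRNAs, and edgeR's quasi-likelihood test ran over these counts with Benjamini-Hochberg adjustment. It called 0 of the 399 (0%) at an adjusted p under 0.05, and 13 (3.26%) had an unadjusted p under 0.05. DESeq2 called 1 (0.251%). miR-9 and miR-124, both typical of neural tissue, stood at 99100 to 151000 and 7203 to 25450 RPM, and the liver miRNA miR-122 at 3.95 to 7.23 RPM. Other miRNAs were uneven: miR-375 had 41015 reads in wild-type replicate 1 and 1006 to 2565 in the other libraries. miR-200b had 8332 reads in Adar2-/- replicate 3 and 32197 to 77565 in the others. Whether the dissected tissue differed between brains was not tested. Adar2 mRNA was not analysed here, so the counts offer no check of the genotype labels, and as every library filled a sequencing lane, lane and brain cannot be told apart. The deposited columns carry a running number, lower for wild type than for Adar2-/- within every replicate. Replicate 1 has numbers that the later replicates lack. What the number stands for is not given, and its order cannot be told apart from genotype. Leaving out replicate 1 of both genotypes raised the edgeR count to 18.

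Of all mapped miRNA reads the family took 0.385%, 0.137% and 0.233% in the 3 wild-type brains and 0.203%, 0.208% and 0.181% in the 3 Adar2-/- brains, values being given here and below in the order of replicates 1 to 3. Counting error was small, with 95% Wilson intervals no wider than 0.00345 percentage points on each side, and covers reads rather than molecules. Wild-type replicate 1 was highest and wild-type replicate 2 lowest, and the 3 Adar2-/- libraries lay between them. Summed abundance was 2516 ± 1255 RPM (SD, n = 3) for wild type and 1973 ± 145 (SD, n = 3) for Adar2-/-, with p = 0.7 in a two-sided exact permutation test that cannot go below 0.1 at this size. Without wild-type replicate 1 the direction turned, and Adar2-/- was higher by 125 RPM.

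The star strands supplied almost all of these reads. Their part of the family was 96.2%, 93.7% and 94.9% in wild type and 94.7%, 92.7% and 87.5% in Adar2-/-. miR-376b* alone held 79.4% of the family reads over the 6 libraries and miR-376a* 13.9%, whereas miR-376c* held 0.102%. Among the 73 hairpins with a guide and a star entry that both reached 100 reads in every library, the star exceeded the guide in all 6 libraries in 9, and Mir376a and Mir376b were 2 of them.

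In order of mean level the strands ran miR-376b*, miR-376a*, miR-376c, miR-376b, miR-376a and miR-376c*. All have 21 or 22 bases where a sequence was matched, so reads were not divided by length, although adaptor ligation can favour some ends over others. miR-376b* exceeded miR-376a* in all 6 libraries, by 4.38 to 10.3 times. miR-376a* exceeded miR-376c in all 6 as well, by 3.58 to 9.17 times. The 3 guides were close together: miR-376c was above miR-376b in 3 of 6 libraries, with a median ratio of 1.00, and miR-376b was above miR-376a in 5 of 6. miR-376c* was lowest in every library, with 9.36 times or more between it and miR-376a.

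**Figure D1:**
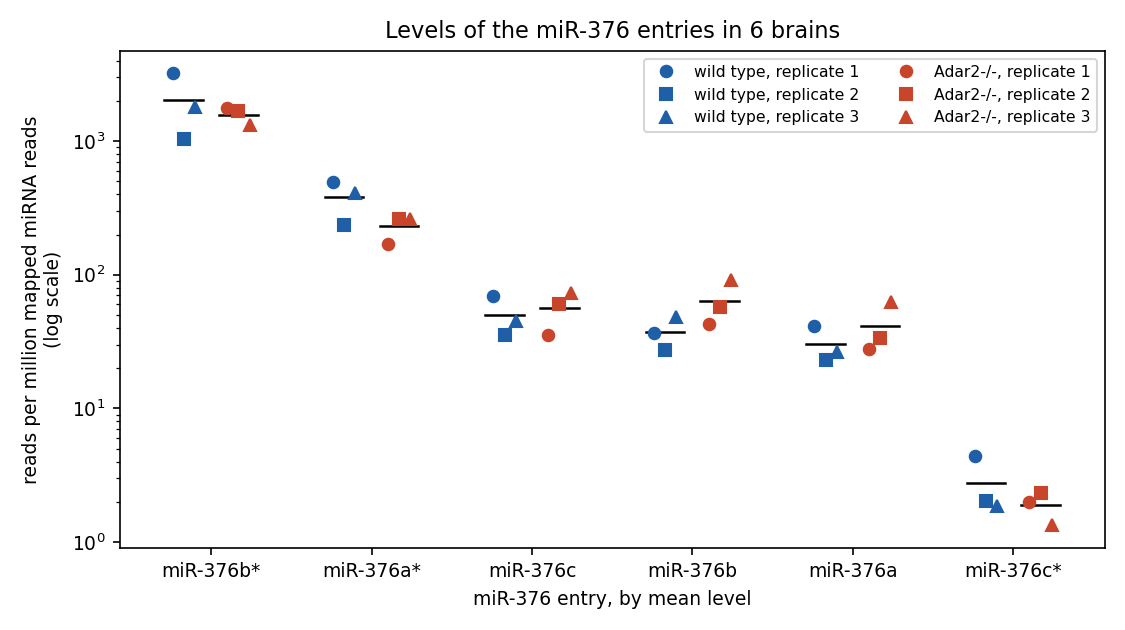
Abundance of the 6 miR-376 entries, in RPM on a log scale, in each of 3 wild-type (blue) and 3 Adar2-/- (red) brains; marker shape gives the replicate number and black lines the arithmetic means of 3 libraries. Both star strands on the left lie above the 3 guides, miR-376c* lies lowest, and the genotypes overlap for every entry.

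No strand passed the test between the genotypes, and the fitted changes of the 3 guides lay above 0 and those of both tested stars below. edgeR tested 5 members, and 0 had an adjusted p under 0.05 and 0 an unadjusted p under 0.05, against 3.26% of all miRNAs for the latter. That last count depended on the setting. With TMM factors miR-376a* and miR-376b had an unadjusted edgeR p under 0.05, beside 4.76% of the 399 miRNAs. Without replicate 1 all 3 guides had one, beside 21.8%. The median log2 fold change of the 5 was 0.19, beside 0.0023 over all 399 miRNAs. With 3 members above 0 and 2 below, it is the value of miR-376c and describes no shift of the family. RPM values of the genotypes overlapped for all 6 members, whereas they did not overlap for 23 of the 399 miRNAs (5.76%).

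miR-376b, a guide with a UAG in its seed, gave 36.6, 27.4 and 47.9 RPM in the wild-type brains and 43.2, 57.1 and 91.1 RPM in the Adar2-/- brains. Every Adar2-/- library was above the wild-type library of its number, but Adar2-/- replicate 1 stayed below wild-type replicate 3. The mean was 37.3 ± 10.3 RPM (SD, n = 3) against 63.8 ± 24.7 (SD, n = 3), or 1.71 times as much (p = 0.2, exact permutation test, two-sided). By edgeR the log2 fold change came to 0.77 with a standard error of 0.386 and an adjusted p of 0.988. Without Adar2-/- replicate 3, the highest library, it was 0.43. It was the only tested member that moved in the same direction in all 3 replicate numbers with a ratio of mean RPM of at least 1.3-fold, a rule that 39 of the 399 miRNAs (9.77%) met, 22 upwards (5.51%) and 17 downwards (4.26%).

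miR-376a*, the star strand with the UAG nearest to the 5′ end, gave 491, 235 and 410.7 RPM in wild type and 169, 259 and 261 RPM in Adar2-/-. Adar2-/- replicates 2 and 3 lay between wild-type replicates 2 and 3, so the genotypes overlapped. The mean was 378.9 ± 131 RPM (SD, n = 3) against 229.9 ± 52.3 (SD, n = 3), or 0.607 times as much (p = 0.3, exact permutation test, two-sided). By edgeR the log2 fold change came to -0.72 with a standard error of 0.372 and an adjusted p of 0.988. It was -0.31 without replicate 1 of both genotypes. Adar2-/- divided by wild type gave 0.345, 1.10 and 0.636 in replicates 1 to 3. The value of replicate 2 depended on the scaling: it was 0.941 with TMM factors and 0.966 where totals excluded the 5 most abundant miRNAs. Under either scaling miR-376a* met the rule above as lower.

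miR-376b*, the most abundant strand, without a UAG, gave 3211, 1042 and 1799 RPM in wild type and 1753, 1667 and 1319 RPM in Adar2-/-. The wild-type libraries spanned a wider range than the Adar2-/- libraries, which all fell inside it. The mean was 2017 ± 1101 RPM (SD, n = 3) against 1580 ± 229.8 (SD, n = 3), and edgeR gave a log2 fold change of -0.35 with a standard error of 0.418 (adjusted p = 0.988). Without wild-type replicate 1 it was 0.15, so the direction rested on that library.

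miR-376a, the guide from the same hairpin as miR-376a*, gave 41.4, 23.0 and 26.4 RPM in wild type and 28.0, 33.6 and 62.3 RPM in Adar2-/-. Only Adar2-/- replicate 3 was above all wild-type libraries. The mean was 30.3 ± 9.78 RPM (SD, n = 3) against 41.3 ± 18.4 (SD, n = 3), and edgeR gave a log2 fold change of 0.45 with a standard error of 0.407 (adjusted p = 0.988). Without replicate 3 of both genotypes it was -0.06.

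miR-376c, the guide of the first of the 3 hairpins, gave 68.8, 35.2 and 44.8 RPM in wild type and 35.4, 60.9 and 72.9 RPM in Adar2-/-. The genotypes covered nearly the same range. By edgeR the log2 fold change came to 0.19 with a standard error of 0.393 (adjusted p = 0.989). It fell below 0 without wild-type replicate 2 (-0.0076), without Adar2-/- replicate 3 (-0.04), without replicate 2 (-0.07) and without replicate 3 (-0.11).

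miR-376c* had 55, 46 and 44 reads in wild type and 37, 55 and 32 in Adar2-/-, which did not reach the minimum of 100 reads. With the minimum set to 10 reads its edgeR log2 fold change was -0.53 (adjusted p = 0.982). As miR-376c* and miR-376b* differ at 1 base, their reads were also summed before the test, which left the log2 fold change of the summed entry at -0.35.

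**Figure D2:**
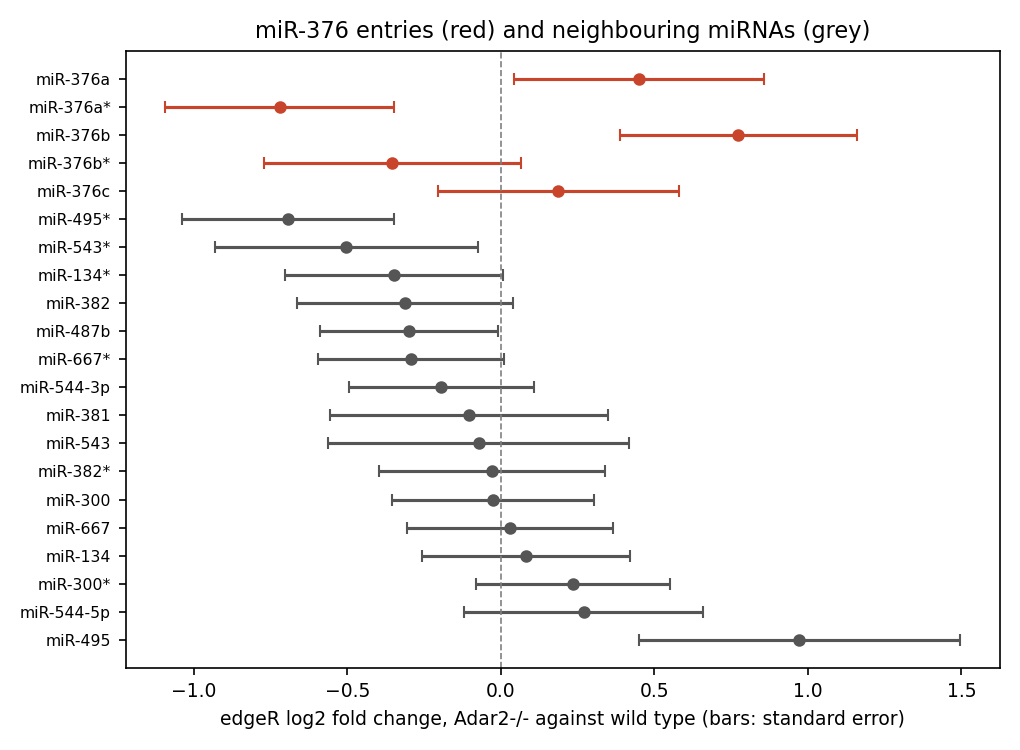
edgeR log2 fold change of Adar2-/- against wild type, with standard error bars, for the 5 tested miR-376 entries (red) and the 16 tested entries of neighbouring miRNA genes (grey). The guides miR-376a, miR-376b and miR-376c lie to the right of 0 and the stars miR-376a* and miR-376b* to the left, and no value had an adjusted p under 0.05.

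Because both arms leave the same precursor, the ratio of star to guide reads within a library is free of the scaling between libraries. It was lower in Adar2-/- than in wild type in all 3 replicate numbers for each of the 3 hairpins. Among the 73 hairpins with both a guide and a star entry tested, Mir376a and Mir376b included, this held for 15 (20.5%).

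For Mir376a the star strand had 11.9, 10.2 and 15.6 reads for each guide read in wild type and 6.05, 7.71 and 4.195 in Adar2-/-. All 3 Adar2-/- libraries lay below all wild-type libraries. The log2 ratio was 3.63 ± 0.31 (SD, n = 3) for wild type and 2.54 ± 0.44 (SD, n = 3) for Adar2-/-. The difference of -1.09 gave the smallest p an exact permutation test allows here, 0.1 (two-sided), and 0.3 after Benjamini-Hochberg adjustment over the 3 hairpins. Over the 102 hairpins with both arms tested, counting 5p and 3p pairs too, the genotypes did not overlap for 10 (9.80%), and among the 73 star and guide pairs 5 (6.85%) were lower in Adar2-/- without overlap.

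For Mir376b there were 87.7, 38.0 and 37.6 star reads for each guide read in wild type and 40.6, 29.2 and 14.5 in Adar2-/-. Adar2-/- replicate 1 was above wild-type replicates 2 and 3, so the genotypes overlapped. The log2 ratio was 5.65 ± 0.70 (SD, n = 3) for wild type and 4.69 ± 0.76 (SD, n = 3) for Adar2-/-. Their difference was -0.96, with p = 0.3 in the exact permutation test before and after adjustment. Leaving out wild-type replicate 1 brought it to -0.55, leaving out Adar2-/- replicate 3 to -0.54.

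As counted, Mir376c was the reverse of its neighbours in its arms: the star was rarer than the guide in every library, with log2 ratios of -3.96, -4.12 and -4.58 in wild type and -4.16, -4.71 and -5.77 in Adar2-/-. Its star had 32 to 55 reads beside 23743 to 42219 of miR-376b*. How reads that match both stars were shared is not known, and the Mir376c ratio depends on it. Here the genotypes differed by -0.66, with p = 0.2 in the exact permutation test and 0.3 after adjustment, and Adar2-/- replicate 1 lay within the wild-type range. Without Adar2-/- replicate 3 the difference was -0.21. With the stars of Mir376b and Mir376c summed over the sum of their guides, which does not depend on how reads were shared between the near-identical stars, the difference was -0.65 (p = 0.3 in the same exact test). As miR-376c* adds few reads to that sum, this is almost the ratio of miR-376b* to both guides. It says little about Mir376c alone.

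**Figure D3:**
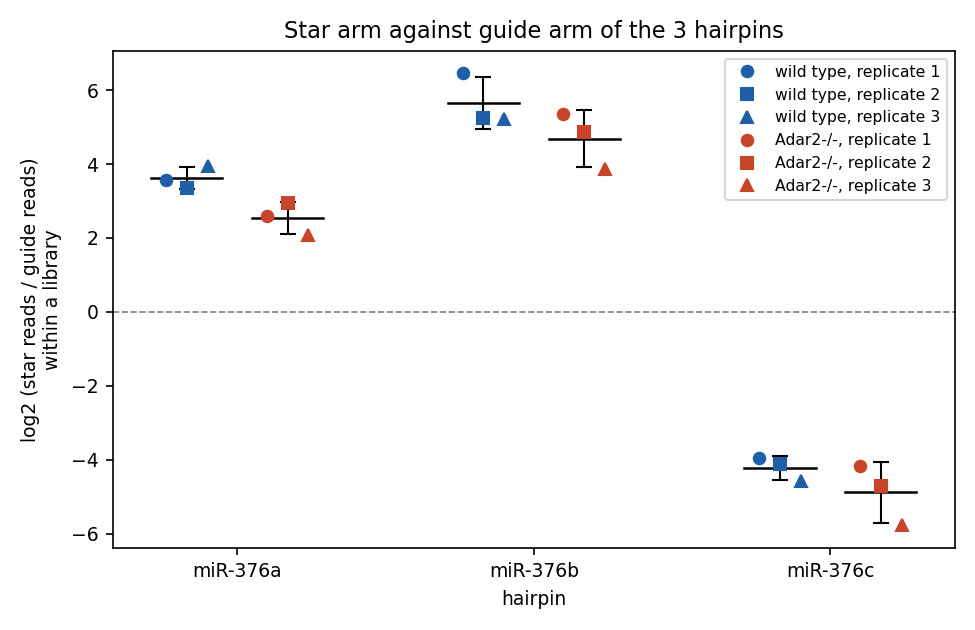
log2 ratio of star to guide reads within each library for the 3 miR-376 hairpins, wild type in blue and Adar2-/- in red, with mean and SD of 3 libraries. Each Adar2-/- mean lies below the wild-type mean, and only for miR-376a do the points of the genotypes not overlap.

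Set among the 73 star and guide pairs, Mir376a had the third most negative difference and Mir376b the sixth: 2 pairs lay below the first and 5 below the second. The differences over the 73 pairs ran from -1.57 to 1.01 with a median of -0.26. The lowest belonged to miR-495, a neighbour in the same row of genes.

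**Figure D4:**
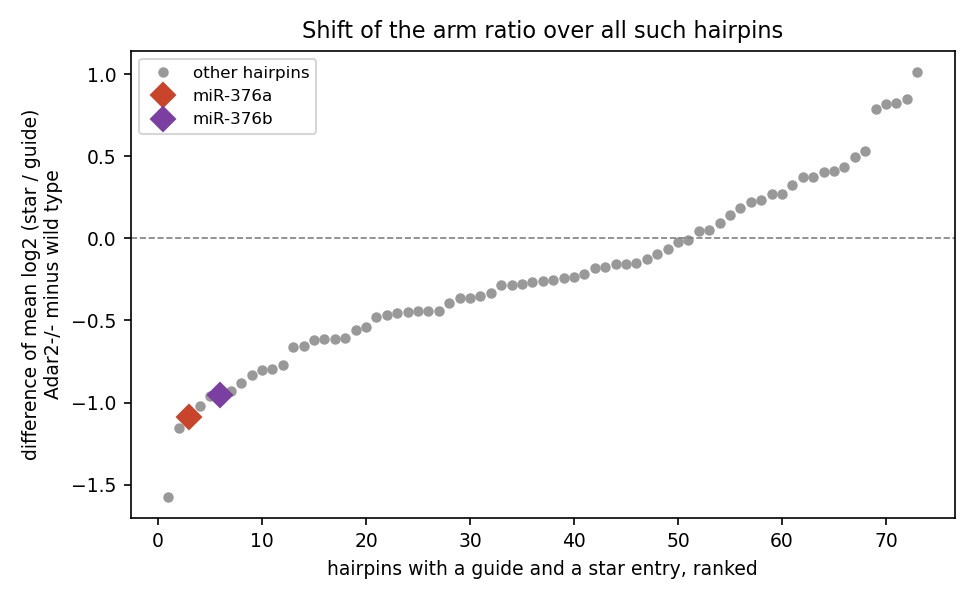
Difference of the mean log2 star to guide ratio, Adar2-/- minus wild type, for 73 hairpins ranked from lowest to highest, with miR-376a and miR-376b marked. Both stand near the lower end, at -1.09 and -0.96, and the ranking as a whole lies more below 0 than above it.

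The 12 genes from Mir1193 to Mir134 around the miR-376 hairpins have 24 entries in the tables, of which 16 were tested. 0 of the 16 had an unadjusted p under 0.05, 5 had a log2 fold change above 0 and 11 below, and their median was -0.09. Summed over the 24 entries, however, the neighbours stood at 11550, 11490 and 12340 RPM in wild type and at 9969, 10590 and 11400 RPM in Adar2-/-. In RPM these sums did not overlap, and the means differed by -1143 RPM (p = 0.1, exact permutation test, two-sided). They were scaled by total reads only, while TMM factors ran from 0.868 in Adar2-/- replicate 1 to 1.10 in wild-type replicate 1. Divided by those factors, the sum of wild-type replicate 1 lies below that of Adar2-/- replicate 1, so the separation depends on the scaling. miR-495* had the smallest unadjusted p among the lower ones, with a log2 fold change of -0.69 (standard error 0.344) and an edgeR adjusted p of 0.988. miR-495 had the smallest among the higher ones, with a log2 fold change of 0.97 (standard error 0.523) and the same adjusted p, and it was the only one of the 16 that edgeR called without replicate 1. miR-382, the most abundant of them, averaged 5342 ± 1956 RPM (SD, n = 3) over the wild-type brains and 4305 ± 458 (SD, n = 3) over the Adar2-/- brains. Most of the difference between the sums lay in miR-382, whose values overlapped between the genotypes (p = 0.5, exact permutation test, two-sided). Mir495, like Mir376a and Mir376b, thus had its guide above 0 and its star below 0. The same held for Mir134 and Mir667, while Mir543 and Mir382 had both arms below 0. Mir300 had its guide below 0 and its star above. The signs were not tested.

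Over the wider list from Mir379 to Mir410, with 65 entries besides the miR-376 family, 42 were tested. Of these, 1 had an unadjusted p under 0.05, 21 lay above 0 and 21 below. Their summed level was lower in Adar2-/- in all 3 replicate numbers, the means differing by -2839 RPM, but the genotypes overlapped (p = 0.3 in the same exact test). The miR-376 family made up 16.98%, 6.25% and 8.60% of the reads of this list and the family together in wild type and 10.8%, 9.68% and 8.52% in Adar2-/- (p = 0.9, exact permutation test, two-sided). Wild-type replicate 1 stood apart from the other 5 libraries.

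Taken relative to the summed reads of the 12 neighbouring genes in the same library, miR-376b was higher in all 3 Adar2-/- libraries than in any wild-type library. Its log2 ratio to the neighbours was -8.30, -8.71 and -8.01 in wild type and -7.85, -7.54 and -6.97 in Adar2-/-, apart by 0.89, with p = 0.1 in the exact permutation test and 0.6 after adjustment over the 6 members. In RPM the neighbours' own sum was lower in Adar2-/-, as given above, while the values of miR-376b overlapped between the genotypes. On this scale 37 of the 399 miRNAs (9.27%) did not overlap between genotypes, and 32 (8.02%) were higher in Adar2-/- without overlap. miR-376a* differed by -0.53 (p = 0.3 in the same exact test) and miR-376b* by -0.07 (p = 1), the latter a small difference beside the spread of its libraries. The differences of miR-376a and miR-376c were 0.56 and 0.33 (p = 0.3 and 0.5 in the exact test).

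The 5 tested members did not all rise and fall together over the 6 libraries: guides were more like guides, and stars like stars, than guides like stars. Pearson's r between log2 RPM values is given as a description over 6 libraries that share the same genotypes and scaling. It was 0.88 between the guides miR-376a and miR-376c, 0.77 between miR-376a and miR-376b and 0.64 between miR-376b and miR-376c. Between the stars miR-376a* and miR-376b* it was 0.64. From guide to star it ran from -0.09 to 0.52. Between the arms of 1 hairpin it was 0.20 for Mir376a and -0.09 for Mir376b. The pattern most like that of miR-376a belonged to miR-495 (r = 0.99) and let-7g (0.98), and that of miR-376a* was closest to miR-487b (0.97) and miR-1981* (0.96). miR-376b was closest to miR-873 (0.98) and miR-129-2-3p (0.95), miR-376b* to let-7i* (0.98) and miR-382 (0.98), and miR-376c to miR-130a (0.99) and miR-337-5p (0.99).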

How the data were processed

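Reads on mature miRNAs of 6 whole-brain libraries, 3 for each genotype, were used as deposited. Adaptors had been clipped by the authors (Cutadapt) and reads aligned by NextGenMap against mature miRBase sequences at 90% identity or more. They dropped reverse-strand hits, weighted reads with several equally good hits and deposited counts without normalization. How weights became whole numbers is not given in the sources used here. Near-identical entries such as miR-376b* and miR-376c* can therefore share reads. The labels name mm9, which is NCBIM37, and 12 blank lines were dropped.

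The genotype term was fitted to the counts by edgeR 4.0.16 under R 4.3.3 (glmQLFit, glmQLFTest) with total mapped miRNA reads as library size, at least 100 reads in every library and a threshold of 0.05. For single values an exact permutation test, two-sided, was used. As alternatives, scaling used TMM factors or totals that excluded the 5 most abundant miRNAs, the tool was DESeq2 1.42.0, and further fits had a minimum of 10 reads or none, a replicate block, 1 library or 1 replicate number fewer, 0.5 reads added before a ratio and near-identical entries summed. Leave-one-out fits kept the 399 miRNAs. The fits and the exact test were tested on simulated data. Libraries were not paired by replicate number in the main fit. Deviations of same-numbered libraries correlated at -0.0010, -0.08 and -0.01 over 399 miRNAs, which at 3 libraries per genotype cannot exclude pairing.

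Sequences were read from RefSeq (GRCm38.p6 table) and hairpins placed on NCBIM37 by exact match. Folding used RNAfold of ViennaRNA 2.7.2, and other values Python 3.11.15 with numpy 2.4.6, pandas 2.3.3 and scipy 1.17.1. All 6 members were named. Of the neighbours, the most abundant one was named, and for higher and for lower values that of smallest unadjusted p, and for each tested member the 2 miRNAs of highest correlation. miR-495 is also named for its arm ratio, after its value was seen, and so are the neighbours with a tested guide and star, for the signs of their arms. miR-375 and miR-200b are named for their uneven reads, likewise after these were seen. Members and lists were chosen with earlier results of these data known. Replicates are separate brains.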

Additional observations from a re-analysis of the deposited data

How the results depend on the processing

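In each fit, by edgeR or DESeq2, 0 members had an adjusted p under 0.05. The lowest adjusted p over all alternatives was 0.157 for miR-376a, 0.161 for miR-376b and 0.187 for miR-376c (each edgeR without replicate 1), 0.303 for miR-376a* (DESeq2) and 0.786 for miR-376b*. DESeq2 gave unadjusted p under 0.05 for miR-376a* (0.0077) and miR-376b (0.020), where 10.0% of all miRNAs had one. Over all edgeR settings 0 to 3 members had one, 2 with TMM factors and 3 without replicate 1. Where 1 library or 1 replicate number was missing, the log2 fold change ran from -0.0616 to 0.96 for miR-376a, -1.07 to -0.31 for miR-376a*, 0.43 to 1.00 for miR-376b, -0.71 to 0.15 for miR-376b* and -0.11 to 0.74 for miR-376c. The log2 arm ratio differences kept their sign, from -1.43 to -0.69 for miR-376a, -1.28 to -0.54 for miR-376b and -1.02 to -0.21 for miR-376c. Relative to the neighbours the ranges were 0.16 to 1.01 for miR-376a, -0.93 to -0.14 for miR-376a*, 0.65 to 1.11 for miR-376b, -0.50 to 0.36 for miR-376b*, 0.04 to 0.86 for miR-376c and -0.66 to 0.0793 for miR-376c*. Summed RPM differences ran from -1172 to 125 for all members, -1206 to 66.2 for the stars and 11.9 to 86.6 for the guides, and turned positive for the first 2 without wild-type replicate 1 or without replicate 1. The cause was not tested.

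The count of members changed in 1 direction by at least 1.3-fold was 1 and became 2 with TMM factors and 2 where totals excluded the 5 most abundant miRNAs, miR-376a* being added as lower. It ran from 1 to 3 with a replicate number left out, when only 2 comparisons have to match. Over all miRNAs DESeq2 called 1 and edgeR 0 to 18 with libraries left out, and in the neighbour list 0 to 1. With the replicate number as a block, the edgeR log2 fold changes were 0.41 for miR-376a, -0.68 for miR-376a*, 0.74 for miR-376b, -0.22 for miR-376b* and 0.19 for miR-376c, and the block changed no call. With miR-376c* at 32 to 55 reads, its values are limited by depth.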
